A study of Homo sapiens with 6 samples.

Results

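The genes described here are 10 feedback inhibitors of MAP kinase signalling: DUSP1, DUSP2, DUSP4, DUSP5, DUSP6, DUSP8, DUSP10, SPRY2, SPRY4 and SPRED1. They were chosen by name, as the rows of the 6 deposited tables whose symbol is one of these 10, among 17645 genes listed in each table. The choice was made with earlier results of these data known. All 10 rows were found, and their Gene IDs all matched RefSeq (GRCh38.p14). RNA came from cells labelled MDA-MB-231, an established line of triple negative breast cancer. In 3 libraries the cells had been transfected with siRNA against RNF31 (siRNF31), and in 3 others with control siRNA (siControl). Every library was taken 48 h after transfection, so there is 1 time point and no untransfected group. The siRNA sequences were not used here, and the labels do not say whether 1 siRNA or a pool was transfected. RNF31 encodes HOIP, the ligase that builds linear ubiquitin chains within the complex LUBAC, and the series is about its function in this cancer.

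MAP kinases are switched on by phosphorylation of a threonine and a tyrosine in their activation loop. Dual-specificity phosphatases (DUSP) remove both phosphates, and many of their genes are themselves induced when MAP kinases are active, which closes a negative feedback loop. Sprouty (SPRY) and Spred (SPRED) proteins act further up, between growth factor receptors, RAS and RAF. These are background facts, and neither protein nor phosphorylation was measured here.

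Promoter windows are shown for 4 of the genes, because the levels of 3 of these (DUSP1, DUSP8 and SPRY2) moved by at least 2-fold and that of DUSP6, the best known ERK feedback phosphatase, moved little. Each window runs from 250 bases before to 50 after an annotated gene start, and is given 5′ to 3′ on the strand of the gene, from RefSeq (GRCh38.p14). All 4 genes lie on the minus strand, DUSP1 at chr5:172771146-172771445, DUSP8 at chr11:1572222-1572521, SPRY2 at chr13:80341077-80341376 (the first of its 3 annotated starts) and DUSP6 at chr12:89352452-89352751. Capitals mark TGACG on either strand, the core of the cAMP response element, the full palindromic element TGACGTCA that contains this core on both strands, and the TATA box TATAAA.
DUSP1: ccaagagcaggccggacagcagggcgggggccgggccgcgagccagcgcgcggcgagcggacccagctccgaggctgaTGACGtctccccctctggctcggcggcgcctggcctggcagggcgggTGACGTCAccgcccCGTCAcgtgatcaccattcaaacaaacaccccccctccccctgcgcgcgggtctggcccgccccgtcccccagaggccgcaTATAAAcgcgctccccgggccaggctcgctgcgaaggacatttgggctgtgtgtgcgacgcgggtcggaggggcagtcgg
DUSP8: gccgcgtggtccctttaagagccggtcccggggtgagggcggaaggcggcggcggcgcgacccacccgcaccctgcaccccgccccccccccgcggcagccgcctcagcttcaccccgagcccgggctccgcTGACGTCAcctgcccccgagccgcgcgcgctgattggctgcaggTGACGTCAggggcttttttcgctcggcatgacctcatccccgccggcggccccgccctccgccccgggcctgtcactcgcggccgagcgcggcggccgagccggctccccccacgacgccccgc
SPRY2: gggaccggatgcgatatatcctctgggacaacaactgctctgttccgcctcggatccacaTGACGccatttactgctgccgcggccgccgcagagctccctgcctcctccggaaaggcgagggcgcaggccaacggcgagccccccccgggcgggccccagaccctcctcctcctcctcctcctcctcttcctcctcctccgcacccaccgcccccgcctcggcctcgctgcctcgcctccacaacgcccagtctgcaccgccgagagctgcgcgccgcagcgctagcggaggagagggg
DUSP6: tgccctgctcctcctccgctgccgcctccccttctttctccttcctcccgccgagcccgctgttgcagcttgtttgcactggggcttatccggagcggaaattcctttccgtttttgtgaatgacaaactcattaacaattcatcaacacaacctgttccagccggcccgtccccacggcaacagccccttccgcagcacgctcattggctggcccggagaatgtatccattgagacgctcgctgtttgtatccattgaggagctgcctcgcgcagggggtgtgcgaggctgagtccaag

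Expression was deposited as FPKM, a fragment number scaled by transcript length and by library size, so levels of different genes can be set side by side. Read counts were not analysed here, so counting error cannot be given for any value. The FPKM columns summed to between 434973 and 463457 in siRNF31 and between 421755 and 458803 in siControl. Of the 17645 genes, 11346 reached FPKM of 1 in 3 or more of the 6 libraries and were compared with limma on log2(FPKM + 1), with p-values adjusted over all of them. The word called means an adjusted p under 0.05. RNF31 itself measured 1.92, 2.12 and 1.86 FPKM in siRNF31, against 11.34, 10.7 and 10.57 in siControl. The second principal component set siRNF31 replicate 3 and siControl replicate 1 apart from the other 4 libraries. Of the receptors that a triple negative line lacks or holds at a low level, PGR was at or below 0.01 FPKM and ESR1 at or below 1.33 in every library, and ERBB2 lay between 6.84 and 8.47. Among epithelial or luminal markers, EPCAM and CDH1 were at or below 0.03 and 0.2 FPKM, and GATA3 and FOXA1 at or below 0.81 and 0.42. KRT8, of the same marker list, was expressed, at 9.66 to 11.19 FPKM. Of the mesenchymal markers of the line, VIM measured 3458 to 3771 FPKM in siRNF31 and 3027 to 3342 in siControl. The mean of AXL was 326.7 FPKM in siRNF31 and 298.7 in siControl, and that of CAV1 was 524.6 in siRNF31 and 485.6 in siControl. For VIM, AXL and CAV1 every siRNF31 value lay above every siControl value, but these genes were not called. CD44 went the other way and was called lower, at 247 ± 3.35 FPKM in siRNF31 against 550 ± 17.3 in siControl (SD, n = 3 each). Of 3 markers of other cell types, PTPRC of blood cells was at or below 0.51 FPKM throughout, and 2 were lower in siRNF31. PECAM1 of endothelium measured 0.573 ± 0.078 FPKM in siRNF31 and 1.49 ± 0.190 in siControl, and COL1A1, taken as a fibroblast marker, 667.9 ± 25.8 in siRNF31 and 1050 ± 22.1 in siControl (SD, n = 3 each). Their part in the results was not tested, and in bulk RNA fewer cells of a type and less RNA per cell cannot be told apart. Whether the 3 libraries of a group came from separate cultures is not stated in the labels, and p-values here may reflect technical spread alone.

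The feedback genes were mostly more abundant after RNF31 silencing. Of the 10 genes, 8 were called higher in siRNF31, none was called lower, and 2 were not called, where 26.6% of all genes tested were called higher and 36.5% lower. The 10 genes were chosen with earlier results of these data known, so these shares describe the genes and test nothing. DUSP5, DUSP1, SPRY2 and DUSP8 were higher by at least 1 on the log2(FPKM + 1) scale, a rise that 3.53% of all genes tested made. For 8 of the 10 genes the library values of siRNF31 and siControl were fully separate, as they were for 67.2% of all genes tested. The median log2 fold change was 0.84 over the 10 genes and -0.060 over all genes tested. DUSP8 passed the filter on low values through its siRNF31 libraries, which favours a call in that direction. The other 9 were at FPKM of at least 1 in every library, and 7 of those 9 were called higher.

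**Figure D1:**
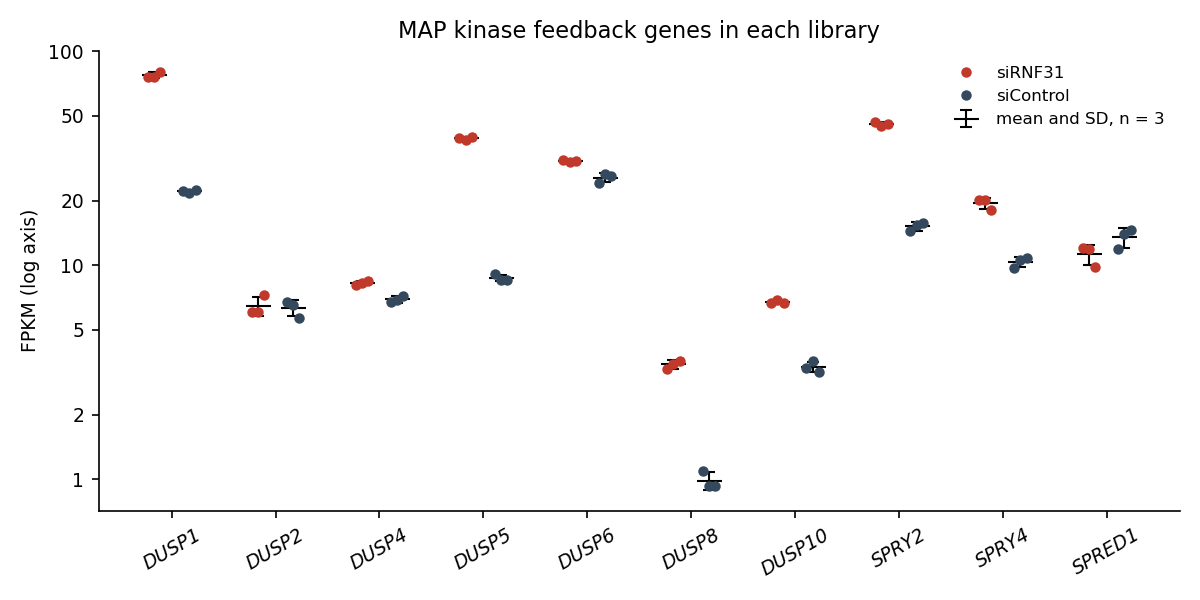
FPKM of the 10 feedback genes (log axis) in each of the 3 siRNF31 libraries (red) and the 3 siControl libraries (blue-grey), with the mean and SD of each group in black. The groups are far apart for DUSP1, DUSP5, DUSP8, DUSP10, SPRY2 and SPRY4, close but separate for DUSP4 and DUSP6, and overlapping for DUSP2 and SPRED1.

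DUSP5 and DUSP1, a pair of nuclear phosphatases, changed most among the 10 genes on the log2(FPKM + 1) scale. By ratio of means DUSP8 was level with DUSP1, at 3.49 each. The other nuclear members, DUSP4 and DUSP2, had log2 fold changes of 0.22 and 0.023. DUSP5, a nuclear phosphatase that acts on ERK and can hold it in the nucleus, measured 39.32, 38.44 and 39.75 FPKM in siRNF31, against 9.06, 8.57 and 8.57 in siControl. The siRNF31 values were about equal to each other and far above all siControl values. The mean was 39.2 ± 0.668 FPKM in siRNF31 and 8.73 ± 0.283 in siControl (SD, n = 3 each), a ratio of 4.49. The log2 fold change of DUSP5 was the largest among the 10 genes, at 2.05 (SE 0.052, limma, adjusted p = 4.50e-08). RefSeq lists 2 pseudogenes of DUSP5, and how reads shared with them were counted is not known here.

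DUSP1, an immediate early phosphatase of p38, JNK and ERK, was the most abundant of the 10 genes in siRNF31. Its values were 75.49, 76.17 and 80.31 FPKM in siRNF31, against 22.14, 21.83 and 22.46 in siControl. The siControl values were nearly equal, and every siRNF31 value was far above them. On the log2 scale DUSP1 rose by 1.76 (SE 0.051, limma, adjusted p = 8.19e-08), and the ratio of means was 3.49.

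The other nuclear phosphatases of this class moved little. DUSP4, which acts on ERK and JNK, measured 8.1, 8.26 and 8.4 FPKM in siRNF31 and 6.73, 6.85 and 7.2 in siControl. The groups did not overlap, but the gap between them was small. The log2 fold change of 0.22 (SE 0.059) passed the test (limma, adjusted p = 0.00955), but with the replicate number as a block DUSP4 missed the threshold (adjusted p = 0.0505). DUSP2, known from activated immune cells, measured 6.04, 6.07 and 7.24 FPKM in siRNF31 and 6.76, 6.54 and 5.68 in siControl. Both groups covered nearly the same range, and the siRNF31 library with the high value, replicate 3, was one of those that stood apart. DUSP2 had a log2 fold change of 0.023 with a 95% interval from -0.18 to 0.23 (limma, adjusted p = 0.83), and without siRNF31 replicate 3 it was -0.052.

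DUSP6, the cytoplasmic phosphatase specific for ERK and the one whose transcript is most often read as a gauge of ERK activity, was the most abundant of the 10 genes in siControl. It measured 31.02, 30.34 and 30.76 FPKM in siRNF31, against 24.22, 26.74 and 26.1 in siControl. All siRNF31 values were higher, and the gap was wider than the range of the siControl values. The mean was 30.7 ± 0.343 FPKM in siRNF31 and 25.7 ± 1.31 in siControl (SD, n = 3 each), 119.5% of the siControl mean, and the log2 fold change was 0.25 with a 95% interval from 0.12 to 0.38 (limma, adjusted p = 0.00398). That interval and the interval of DUSP5, from 1.93 to 2.16, do not meet. The difference between the 2 genes was not itself tested.

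Phosphatases that prefer JNK and p38 were higher as well. DUSP10, which acts on p38 and JNK, measured 6.63, 6.87 and 6.67 FPKM in siRNF31, against 3.31, 3.55 and 3.17 in siControl, a ratio of means of 2.01. The values within each group lay close together and the groups were well apart. This was a rise of 0.83 on the log2 scale (SE 0.064, limma, adjusted p = 9.15e-06). DUSP8, the least abundant of the 10 genes in both groups, measured 3.27, 3.46 and 3.57 FPKM in siRNF31 and 1.09, 0.93 and 0.93 in siControl. Every siRNF31 value was far above the siControl range, and the ratio of means was 3.49. The log2 fold change was 1.16 (SE 0.069, limma, adjusted p = 2.21e-06), a size that is understated because the pseudocount of 1 is about as large as the siControl level. With a pseudocount of 0.1 it was 1.71. RefSeq lists 3 pseudogenes of DUSP8, and its level is uncertain for that reason.

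SPRY2 and SPRY4 encode membrane-associated inhibitors of growth factor signalling toward RAS and RAF, which growth factors induce. SPRY2 measured 46.86, 44.82 and 45.95 FPKM in siRNF31, against 14.44, 15.41 and 15.77 in siControl. The ratio of means was 3.02, and the rise on the log2 scale was 1.53 (SE 0.054, limma, adjusted p = 1.69e-07). SPRY4 measured 20.11, 20.21 and 18.06 FPKM in siRNF31, against 9.75, 10.58 and 10.75 in siControl. Neither gene had a siRNF31 value near its siControl range, and in SPRY4 the lowest siRNF31 value came from replicate 3. For SPRY4 the log2 fold change was 0.85 with a 95% interval from 0.69 to 1.00 (limma, adjusted p = 1.11e-05), below the SPRY2 interval from 1.41 to 1.66. RefSeq places the non-coding gene SPRY4-IT1 within SPRY4, and how reads over it were counted is not known here.

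SPRED1 did not follow the Sprouty genes. Its protein brings the RAS inhibitor neurofibromin to the membrane, and loss of the gene causes a RASopathy, Legius syndrome. The values were 12.05, 11.84 and 9.85 FPKM in siRNF31, against 11.84, 14.06 and 14.64 in siControl. The lowest siControl value, of replicate 1, lay within the siRNF31 range, and the other siControl values lay above it. The log2 fold change was -0.24 with a 95% interval from -0.47 to -0.017 (limma, adjusted p = 0.0586), which missed the threshold. SPRED1 stayed uncalled in 11 of the 13 alternatives, with adjusted p up to 0.17 (limma). It was called in the others. Without siControl replicate 1 the value was -0.33 (limma, adjusted p = 0.0135). Without siControl replicate 1 and siRNF31 replicate 3 together, the libraries that stood apart, it was -0.25 (limma, adjusted p = 0.00374). That joint alternative was added after the data were seen.

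**Figure D2:**
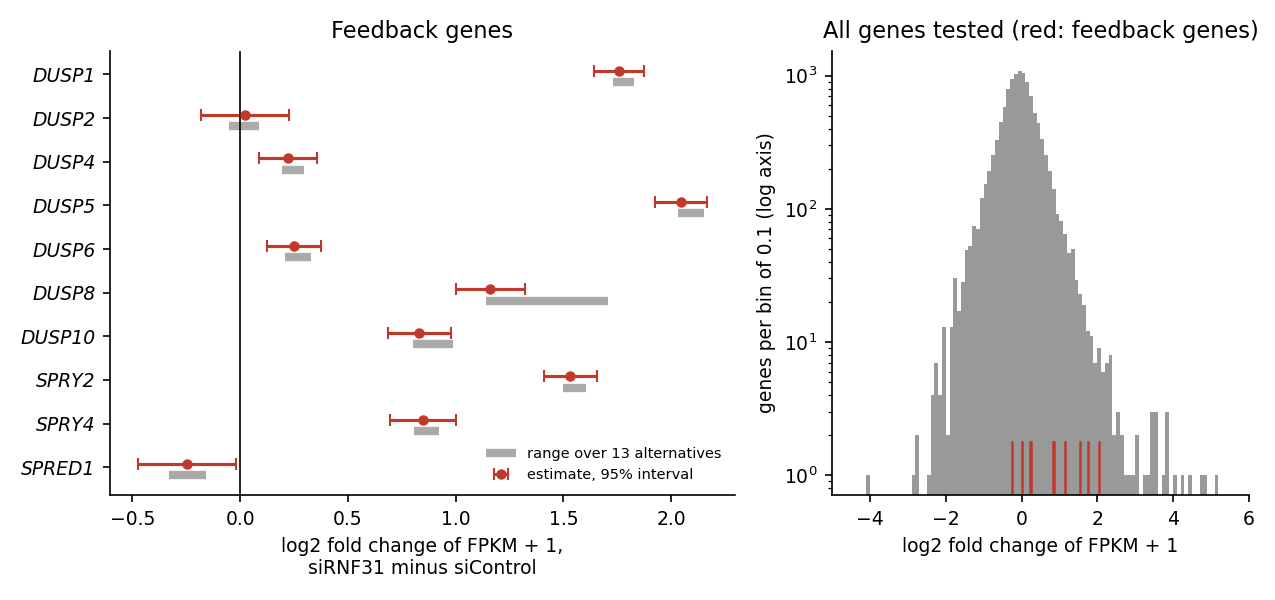
Left, log2 fold change of FPKM + 1 (siRNF31 minus siControl) of each feedback gene with its 95% interval (red) and the range over 13 alternative analyses (grey bars). Right, the same quantity for all 11346 genes tested in bins of 0.1 (log axis), with the feedback genes as red ticks: DUSP5 at 2.05 and DUSP1 at 1.76 lie in the thin upper part, and SPRED1 at -0.24 and DUSP2 at 0.023 lie in the bulk.

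The order of abundance among the 10 genes differed between the groups. In siRNF31 the mean FPKM ran from DUSP1 (77.3) over SPRY2 (45.9), DUSP5 (39.2), DUSP6 (30.7), SPRY4 (19.5), SPRED1 (11.2), DUSP4 (8.25), DUSP10 (6.72) and DUSP2 (6.45) to DUSP8 (3.43). In siControl it ran from DUSP6 (25.7) over DUSP1 (22.1), SPRY2 (15.2), SPRED1 (13.5), SPRY4 (10.4), DUSP5 (8.73), DUSP4 (6.93), DUSP2 (6.33) and DUSP10 (3.34) to DUSP8 (0.983). Neighbours whose library values overlapped were DUSP10 and DUSP2 in siRNF31, and SPRY2 and SPRED1, and DUSP4 and DUSP2, in siControl. DUSP5 stood at rank 3 in siRNF31 and at rank 6 in siControl, and DUSP6 at rank 4 in siRNF31 and at rank 1 in siControl. Summed over the 10 genes, FPKM was 249 ± 2.05 in siRNF31 and 113 ± 3.36 in siControl (SD, n = 3 each), a ratio of 2.20. DUSP1 made up 31.1% of that sum in siRNF31 and 19.6% in siControl.

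The RefSeq promoter table matched 8 of the 10 genes by symbol, all but DUSP4 and DUSP5, with 11 windows in all, since DUSP10 and SPRY2 have several annotated starts. The full element TGACGTCA occurred in the windows of DUSP1 and DUSP8 and in 1.85% of all 35116 windows of the table. DUSP1 carries it once, at bases 126 to 133 of its window, and DUSP8 carries it at bases 133 to 140 and again at bases 177 to 184. G and C made up 73.3% of the DUSP1 window and 78.3% of the DUSP8 window, beside a median of 58.7% over all windows. The shares given here were not matched for this. The core TGACG, which also counts each full element, occurred in 5 of the 11 windows and in 24.6% of all windows. These were the windows of DUSP1, DUSP8 and SPRY4 and a single window each of DUSP10 and SPRY2. These 5 genes were all called higher, as were 8 of all 10 feedback genes and 26.6% of all genes tested. The windows of DUSP2, DUSP6 and SPRED1 held no such core, and of these DUSP6 was called higher too. Whether the core goes with a higher level was not tested. A TATA box TATAAA occurred in the DUSP1 window, at bases 221 to 226, and in 11.5% of all windows. Searched on both strands, the AP-1 site TGANTCA (7.71% of all windows), the ETS site CCGGAAG (10.3%), the CIC site TGAATGAA (1.65%), the CArG box (1.29%) and the NF-kB site (11.3%) had no match in any of the 11 windows. A match in these letters is a description of the window and was not tested as a site of binding.

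**Figure D3:**
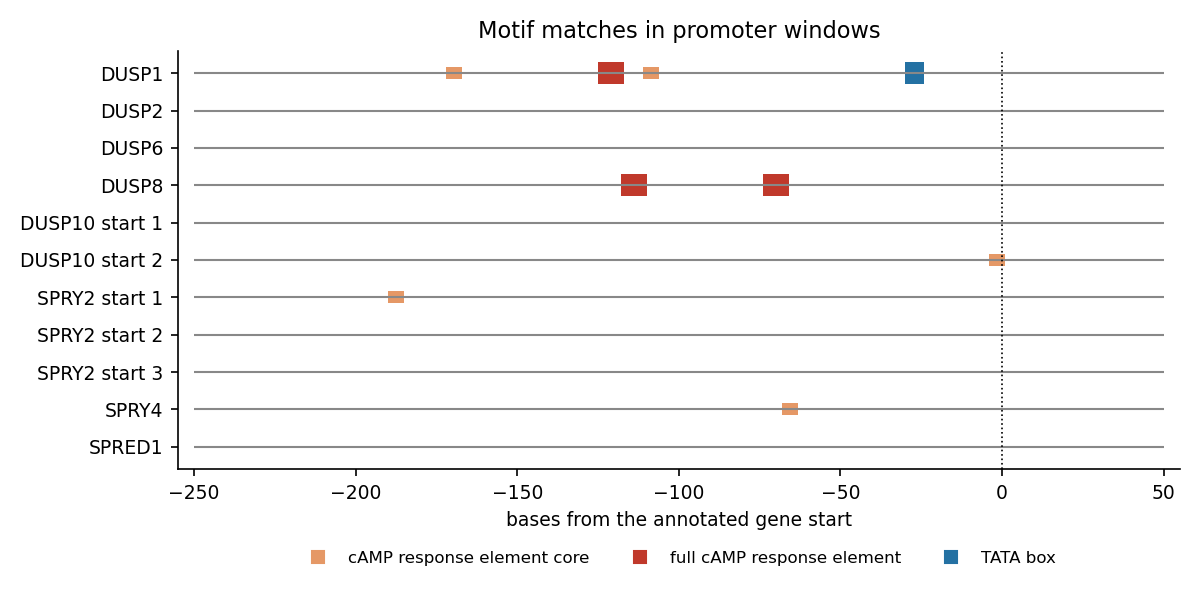
Matches to the cAMP response element, its core on either strand and the TATA box in the 11 promoter windows of 8 feedback genes, by distance in bases from the annotated gene start (dotted line). DUSP8 holds 2 full elements and DUSP1 holds 1, and the windows of DUSP2, DUSP6 and SPRED1 hold no match.

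For the 4 genes that changed by at least 1 on the log2 scale, the genes with the most similar profile were looked up, as the smallest Euclidean distance of centred log2(FPKM + 1) values over the 6 libraries among 11297 other tested genes. With groups this far apart, the measure mainly finds genes of like fold change. Nearest to DUSP1 were JUN, a subunit of AP-1 and like DUSP1 an immediate early gene, and ABTB2 (distances 0.067 and 0.077). JUN measured 242 ± 12.9 FPKM in siRNF31 and 71.4 ± 1.24 in siControl (SD, n = 3 each), a log2 fold change of 1.75. Nearest to DUSP5 were ANKRD1, a target of YAP and TAZ, and TRIB3, a stress-induced pseudokinase (distances 0.068 and 0.12). SPRY2 had ZCCHC24 and PODXL as its nearest genes, and DUSP8 had MTSS2 and CDR2L.

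Other genes of the DUSP, SPRY and SPRED families, from a list of 21, went both ways. Deposited values existed for 20, and 14 passed the filter with 6 called higher and 6 lower (42.9% each way, beside 26.6% higher and 36.5% lower of all genes tested). Their median log2 fold change was 0.14, and 0.22 without siControl replicate 2. DUSP16, which like DUSP8 and DUSP10 prefers JNK and p38, was higher at 5.02 ± 0.316 FPKM in siRNF31 against 2.21 ± 0.129 in siControl (log2 fold change 0.91, limma, adjusted p = 1.01e-05). DUSP7, a cytoplasmic ERK phosphatase like DUSP6, was lower at 12.8 ± 0.328 FPKM in siRNF31 against 21.5 ± 1.11 in siControl (log2 fold change -0.71, limma, adjusted p = 1.41e-05). The third phosphatase of that cytoplasmic class, DUSP9, was at or below 0.37 FPKM in every library. STYXL1, a catalytically inactive relative, was higher by 0.80 on the log2 scale. DUSP15, an atypical phosphatase, was lower by 0.85 but stayed under 1 FPKM in siRNF31, so it passed the filter only through siControl. SPRED2, which like SPRED1 binds neurofibromin, measured 22.2 ± 1.06 FPKM in siRNF31 and 21.2 ± 1.06 in siControl and was not called (limma, adjusted p = 0.37). SPRY1 did not pass the filter, at 0.99, 1.14 and 1.1 FPKM in siRNF31 and 0.63, 0.56 and 0.56 in siControl, so its groups were apart but were not tested.

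Upstream genes went both ways. In a list of 26 genes of the RAS to ERK cascade, all tested, 8 were called higher (30.8%, against 26.6% of all genes tested) and 6 lower (23.1%, against 36.5%), with a median log2 fold change of 0.085, and with median of ratios scaling 13 were called higher and 6 lower. Among the RAS genes, HRAS (45.6 ± 3.31 FPKM in siRNF31, 41.0 ± 3.70 in siControl) and NRAS (40.4 ± 3.85 in siRNF31, 39.9 ± 3.42 in siControl) were not called. The RAF kinase gene BRAF was higher at 7.75 ± 1.25 FPKM in siRNF31 against 5.01 ± 0.831 in siControl, and ARAF was lower at 7.44 ± 0.785 in siRNF31 against 9.94 ± 1.56 in siControl. RefSeq lists pseudogenes of BRAF and ARAF, which makes these values uncertain. The same holds for MAP2K1, KSR1, NF1 and ATF1, reported below. The MEK genes MAP2K1 and MAP2K2 were higher, by 0.17 and 0.32 on the log2 scale. MAPK3, which encodes ERK1, was higher at 24.6 ± 1.33 FPKM in siRNF31 against 17.9 ± 1.01 in siControl (limma, adjusted p = 0.000434).

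Larger changes in the cascade list lay outside the kinase core. PTPN11, the phosphatase SHP2 that relays receptor signals to RAS, was higher at 50.04 ± 7.45 FPKM in siRNF31 against 20.3 ± 2.94 in siControl (log2 fold change 1.26, limma, adjusted p = 4.82e-05), though RefSeq lists 5 pseudogenes that may share its reads. The small GTPase gene MRAS was also higher, by 0.79. The scaffold gene KSR1 was lower by 0.76 and RPS6KA1, the ERK-activated kinase RSK1, by 1.00. In the list of p38, JNK and ERK5 cascades 24 of 27 genes were tested. Of these, 9 were called higher (37.5%, against 26.6% of all genes tested) and 4 lower (16.7%, against 36.5%). The median log2 fold change was 0.10, and 0.054 without siRNF31 replicate 3. MAP2K7, an activator of JNK, rose by 0.72 and RPS6KA4, the kinase MSK2 that acts on CREB and chromatin, by 0.67, while MAP3K5 (ASK1) and MAP3K11 (MLK3), kinases that lead to JNK and p38, fell by 0.93 and 0.89.

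Other negative regulators did not move in one direction. In a list of 19, 16 were tested. Of these, 6 were called higher (37.5%, against 26.6% of all genes tested) and 4 lower (25%, against 36.5%). The median log2 fold change was 0.11. ERRFI1, an inducible inhibitor of the EGF receptor, measured 177 ± 9.54 FPKM in siRNF31 and 83.5 ± 3.24 in siControl (log2 fold change 1.07, limma, adjusted p = 1.70e-06). CBLB, a ligase that marks activated receptors with ubiquitin, was higher by 1.24. DAB2IP, a GTPase-activating protein for RAS, was lower by 1.26, and LRIG1, a membrane inhibitor of EGF receptors, by 1.11. NF1, which encodes the SPRED1 partner neurofibromin, was not called (5.97 ± 1.13 FPKM in siRNF31, 7.55 ± 1.32 in siControl, adjusted p = 0.11).

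Transcripts often used as readouts of ERK activity also split. Of 12 such genes other than the 10 above, 7 were called higher (58.3%) and 3 lower (25%), with a median log2 fold change of 0.28. Of all genes tested, 26.6% were called higher and 36.5% lower. The immediate early genes EGR1 and FOS were higher by 4.81 and 4.43 on the log2 scale. FOS was below 1 FPKM in every siControl library, so it passed the filter only through siRNF31, which favours a call in that direction. The pseudocount of 1 is above its siControl level and understates its change. The ratio of means was 60.0 for FOS and 32.4 for EGR1. MYC was higher at 70.6 ± 3.13 FPKM in siRNF31 against 32.9 ± 1.78 in siControl. CCND1, the cyclin D1 gene, was lower at 101 ± 2.42 FPKM in siRNF31 against 311 ± 17.9 in siControl (log2 fold change -1.61, limma, adjusted p = 2.06e-07).

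A last list held 13 transcription factors known to act on promoters of feedback genes. Of 12 tested, 7 were called higher (58.3%) and 3 lower (25%), with a median log2 fold change of 0.35. The shares over all genes tested were 26.6% higher and 36.5% lower. SRF, the factor that binds the CArG box, was higher at 43.5 ± 1.62 FPKM in siRNF31 against 21.7 ± 0.629 in siControl. ETS1 was higher by 1.26 and ELK4, a partner of SRF, by 0.80 on the log2 scale. ATF1, which binds the cAMP response element, was higher at 10.3 ± 0.589 FPKM in siRNF31 against 4.45 ± 0.116 in siControl (log2 fold change 1.05, limma, adjusted p = 2.46e-06). Gene lists were compared by counts and medians alone, and the differences between lists were not tested.

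**Figure D4:**
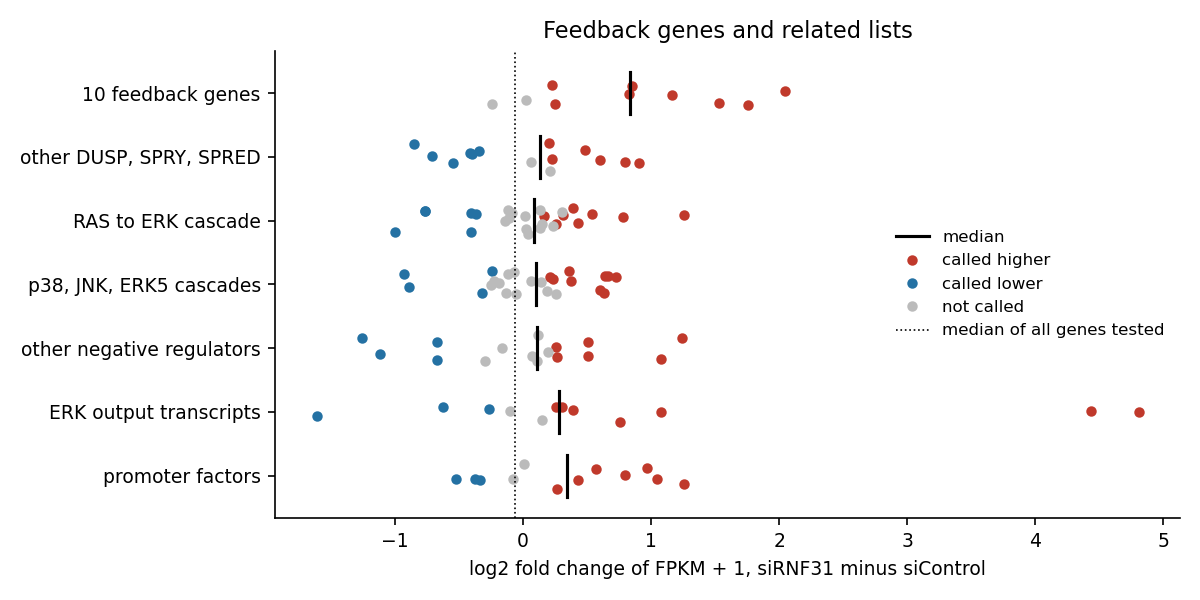
Log2 fold change of FPKM + 1 (siRNF31 minus siControl) of each tested gene in the 10 feedback genes and 6 related lists, red where called higher, blue where called lower and grey where not called, with the list median as a black bar. The median of the feedback genes is 0.84 and those of the other lists run from 0.085 to 0.35, beside -0.060 for all genes tested (dotted line).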

How the data were processed

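The deposited values are FPKM, a fragment number scaled by transcript length and library size, with 1 table per library and 2 decimals, per the file headers. Per the labels' protocols, total RNA was extracted with Trizol and libraries followed BGISEQ-500 protocols. No source used here names the aligner, the quantification program, the build or the annotation. FPKM is relative: a gene that takes more of the fragments lowers the others.

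The groups were compared with limma 3.58.1 (R 4.3.3) on log2(FPKM + 1) over the 11346 genes that reached FPKM of 1 in 3 or more libraries, with intensity trend, robust moderation, two-sided p-values and Benjamini-Hochberg adjustment. Ratios are of mean FPKM. The fit was tested on simulated data. Tables were made with Python 3.11.15 and pandas 2.3.3.

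The members and gene lists were chosen with earlier results of these data known. From each related list the 4 called genes of largest change were named, and the RAS, RAF, MEK and ERK genes, NF1, SPRED2, SPRY1, DUSP7 and DUSP16 whatever their result. Some genes that this rule names are not reported here. DUSP9 was named after its values were seen. Alternatives were a pseudocount of 0.1, no filter, median of ratios scaling, quantile normalization, limma without trend and robust moderation, a replicate block, and fits without each library.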

Additional observations from a re-analysis of the deposited data

How the results depend on the processing

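The 6 members with the larger changes (DUSP1, DUSP5, DUSP8, DUSP10, SPRY2 and SPRY4), DUSP6 and RNF31 kept their direction and their call in all 13 alternatives. DUSP6 ranged from 0.21 to 0.33 on the log2 scale and DUSP8 from 1.14 to 1.71. Same-numbered libraries did not deviate together (correlations of -0.57, 0.12 and -0.63). The highest correlation was between siRNF31 replicate 3 and siControl replicate 1, at 0.68. With 3 libraries per group these values cannot show whether the numbers mark a pairing, and the labels do not state one. With the replicate number as a replicate block, DUSP4 (0.22) missed the threshold at an adjusted p of 0.0505 and 7 members were called higher, against 8 otherwise; over all genes 2480 were then higher and 3497 lower, against 3022 and 4141.

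DUSP2, never called, changed sign without siRNF31 replicate 3 (-0.052), without siControl replicate 3 (-0.042) and without siControl replicate 1 and siRNF31 replicate 3 together (-0.0086), an alternative added after the data were seen. SPRED1 was called lower without siControl replicate 1 (-0.33) and in that joint alternative (-0.25), so that 1 member was called lower in each; leaving out single libraries, SPRED1 ranged from -0.33 to -0.16, DUSP2 from -0.052 to 0.066 and the count of members called lower from 0 to 1. The count of ERK cascade genes called higher was 13 with median of ratios scaling and 13 in the joint alternative, against 8. The cause was not tested. The median of the 10 members ranged from 0.82 to 0.95. List medians over the alternatives ran from 0.065 to 0.22 for other DUSP, SPRY and SPRED genes (0.065 with no filter), from 0.065 to 0.15 for the RAS to ERK cascade, from 0.054 to 0.18 for the p38, JNK and ERK5 cascades and from 0.099 to 0.19 for other negative regulators, beside -0.072 to 0.0040 for all genes tested. Depth is unknown, which limits what can be said of genes near 1 FPKM, DUSP8 among the members.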
